A study of Mus musculus with 24 samples.

Results

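Among mammary basal cells sorted as Lgr5-, cells with a high level of Tspan8 (Lgr5-Tspan8hi) were compared with cells without it (Lgr5-Tspan8-) for histone H3 trimethylated at lysine 4 (H3K4me3). The comparison holds 4 libraries, 2 of each subpopulation, chosen by their labelled subpopulation and antibody. They are 4 of the 8 H3K4me3 libraries and of the 24 samples of the series, of which 16 have counts for each gene. All cells were basal cells isolated directly from mammary glands of untreated female mice of C57BL/6 background, sorted by flow cytometry. The remaining H3K4me3 libraries came from Lgr5+Tspan8hi and Lgr5+Tspan8- cells, and the same 4 subpopulations were also precipitated for H3 trimethylated at lysine 27 (H3K27me3). The sources used here do not give how Lgr5 and Tspan8 were detected, the age of the mice, or whether replicate libraries came from separate animals. P-values here therefore reflect the spread between these libraries alone, and that spread may be technical. The title of the study speaks of quiescent mammary stem cells that are restricted in place and answer to hormones.

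H3K4me3 sits on nucleosomes around the start sites of active genes and, together with H3K27me3, at silent developmental genes that remain poised. It is read by proteins that recruit the transcription machinery, and its level at a promoter usually goes with transcription without being a direct measure of it. Basal cells form the outer layer of the mammary epithelium, express keratins 5 and 14 and contract to eject milk, and some of them can regenerate the gland on transplantation. Tspan8 encodes tetraspanin 8, a protein that spans the cell membrane several times and organizes adhesion receptors and growth factor receptors there. Lgr5 encodes a receptor for R-spondins, which strengthen Wnt signalling.

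Total counts were 2241266 and 2556928 in the Lgr5-Tspan8hi libraries (replicates 1 and 2 throughout) and 1713771 and 4740371 in the Lgr5-Tspan8- libraries. Lgr5-Tspan8hi replicate 1 stood apart. Of 27080 genes, 5844 (21.6%) had no count in it, against 2309 (8.53%) in replicate 2 and 2357 (8.70%) and 662 (2.44%) in the Lgr5-Tspan8- libraries. Effective depth expresses this as the percent of a library's total that, drawn as independent reads, would give the same number of genes without a count. The Lgr5-Tspan8hi libraries reached 17.2% and 47.4%, the Lgr5-Tspan8- libraries 69.4% and 90.4%. The groups did not overlap, with a mean difference of -47.6 percentage points (two-sided exact permutation p = 0.333, the smallest possible with 2 libraries against 2). Replicates held different counts: against counting error alone, chi-square over its degrees of freedom was 4.89 for the Lgr5-Tspan8hi pair and 2.90 for the Lgr5-Tspan8- pair. Reads of the mark were counted at markers of basal identity in all 4 libraries. Luminal markers such as Epcam had reads in all 4 as well, so these values do not tell basal from luminal cells. Krt5 had 159 and 154 CPM (the count scaled to library size with TMM factors) in Lgr5-Tspan8hi and 106 and 148 CPM in Lgr5-Tspan8-, and Krt14 had 145 and 148 against 106 and 125 CPM.

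The Lgr5- subpopulations separated at 5 genes, and the gene used for sorting led them. Tspan8 carried 3.70 times as much H3K4me3 in Lgr5-Tspan8hi cells, and Ptx3, which encodes a secreted pattern-recognition protein of innate immunity and matrix assembly, carried 1.91 times as much. The mark was lower at 3 genes. These were Lrfn5, a synaptic adhesion gene, the predicted gene Gm20063 that starts beside it, and Fbxl22, whose F-box protein promotes the turnover of sarcomeric proteins such as filamin C. Of 19009 genes tested, these 5 (0.0263%) passed at an edgeR quasi-likelihood adjusted p under 0.05, with 2 higher (0.0105%) and 3 lower (0.0158%). With the neighbouring starts of Lrfn5 and Gm20063 taken as 1, the calls amount to 4 promoters. DESeq2 called these 5 and Asb2, and limma-voom called them with Asb2, Tbx2 and 2610027K06Rik.

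**Figure D1:**
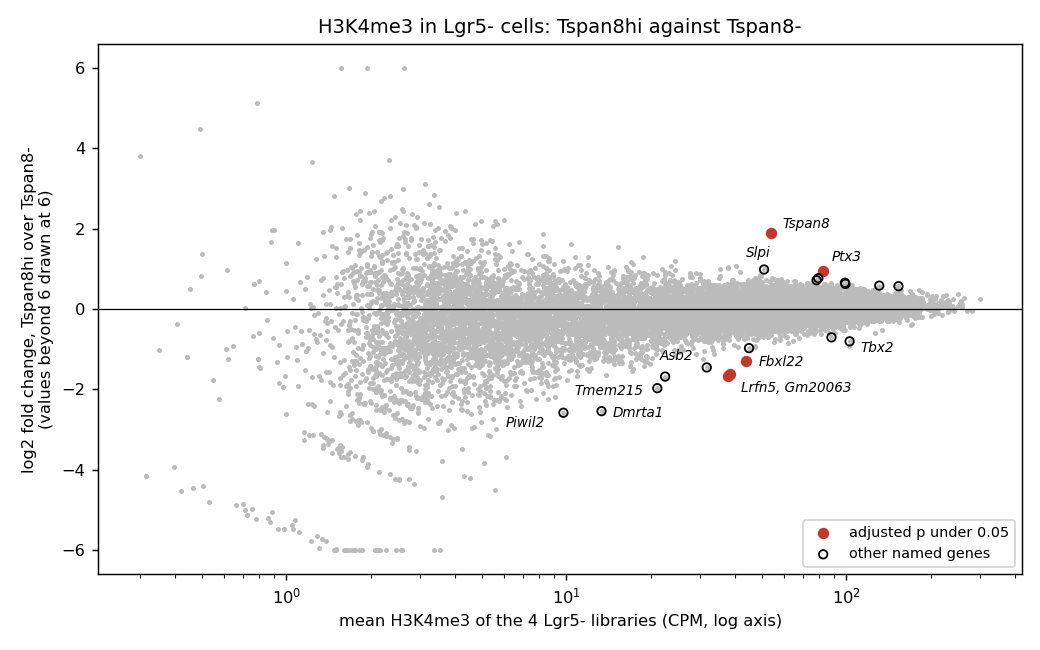
Log2 fold change of H3K4me3 (Lgr5-Tspan8hi over Lgr5-Tspan8-, vertical axis, values beyond 6 drawn at 6) against the mean level of the 4 Lgr5- libraries (CPM, log axis), with 1 grey point for each of 19009 genes. Red points mark the 5 genes that passed, with Tspan8 highest at 1.89, and open circles mark other named genes that did not pass. The cloud widens and tilts below 0 at low levels.

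Many more genes lay apart without passing, about as many as random order gives. The 2 Lgr5-Tspan8hi libraries were both above the 2 Lgr5-Tspan8- libraries at 3090 genes (16.3%) and both below at 3308 (17.4%). With 2 libraries against 2 in random order, a share of 0.333 of genes would lie apart in 1 direction or the other. Lying apart is therefore no result in itself. With no difference at any gene, about 0.05 of them would have an unadjusted p under 0.05. At that bound, 445 genes were higher (2.34%) and 589 lower (3.1%). Of these, 29 of the higher and 288 of the lower genes differed by more than 2-fold. The median log2 fold change over all genes was -0.00, and 49.8% of genes lay above 0. The surplus of lower genes sat at low levels: the 2300 genes with a mean over the 8 libraries under 5 CPM had a median log2 fold change of -0.33, the 6787 genes from 40 to 80 CPM 0.02, and the 4396 genes of at least 80 CPM 0.06. Under 5 CPM, 709 genes had no count in Lgr5-Tspan8hi replicate 1, 130 had none in replicate 2, and 107 and 11 had none in the Lgr5-Tspan8- libraries. Effective depth thus moved with the groups, and its part in the low-level differences was not tested.

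**Figure D2:**
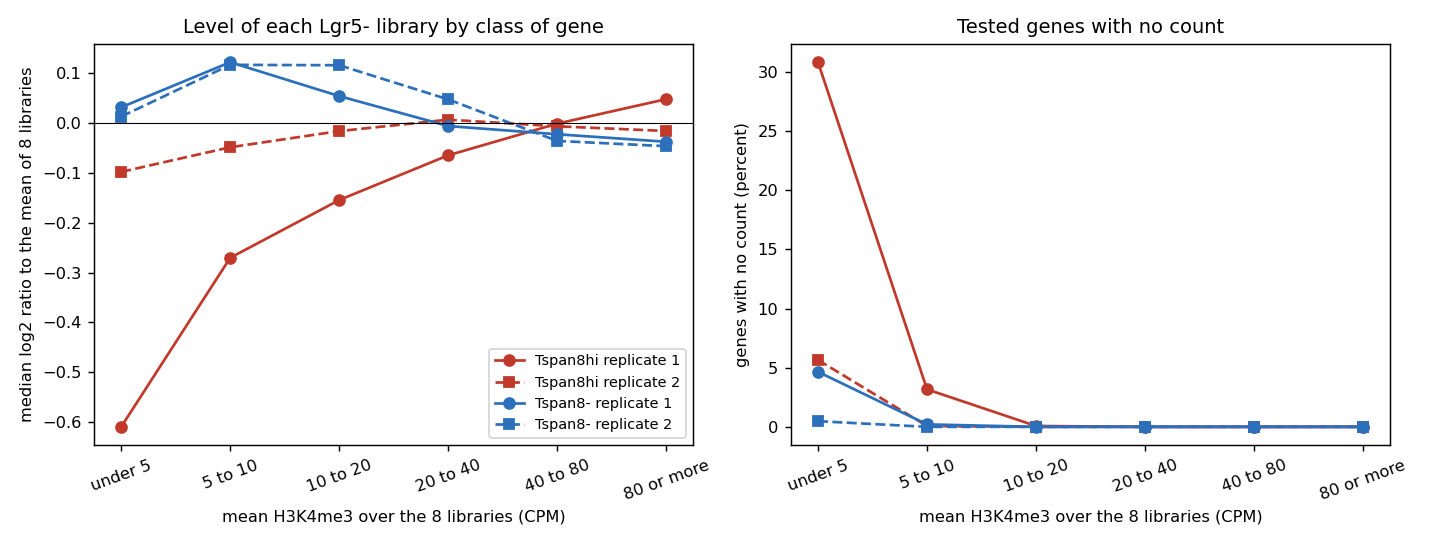
Left, the median log2 ratio of each Lgr5- library to the mean of all 8 H3K4me3 libraries, for genes in 6 classes of that mean (CPM). Right, the percent of tested genes in each class with no count in that library. Lgr5-Tspan8hi replicate 1 lies lowest in the class under 5 CPM at -0.61, against -0.10 for replicate 2 and 0.03 and 0.01 for the Lgr5-Tspan8- libraries.

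The promoter windows of 3 of the called genes are shown because they differ in CpG content, a sequence feature that goes with H3K4me3 across genes and that the test did not use. Each runs 5′ to 3′ on the gene's strand from 250 bases before to 50 bases after a start that RefSeq gives on GRCm38.p6 (the assembly called mm10), with CpG dinucleotides in capitals. At Tspan8 and Lrfn5 that start (position 115817284 and 61523167) lies downstream of the first base of the gene, so the window does not hold that first base. The windows are chr10:115817034-115817333 for Tspan8, chr3:66219637-66219936 for Ptx3 and chr12:61522917-61523216 for Lrfn5, all on the plus strand.
Tspan8: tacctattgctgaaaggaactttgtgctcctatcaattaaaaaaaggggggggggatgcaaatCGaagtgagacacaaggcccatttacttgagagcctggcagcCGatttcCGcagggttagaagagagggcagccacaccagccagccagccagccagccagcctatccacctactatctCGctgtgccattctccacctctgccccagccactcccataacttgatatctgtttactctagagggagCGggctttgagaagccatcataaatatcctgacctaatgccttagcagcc
Ptx3: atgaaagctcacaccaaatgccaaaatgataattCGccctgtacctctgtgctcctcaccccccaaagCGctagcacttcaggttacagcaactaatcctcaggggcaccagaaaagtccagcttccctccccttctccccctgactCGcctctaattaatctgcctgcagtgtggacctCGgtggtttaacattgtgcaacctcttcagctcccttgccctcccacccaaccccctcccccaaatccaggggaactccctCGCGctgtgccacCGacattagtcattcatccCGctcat
Lrfn5: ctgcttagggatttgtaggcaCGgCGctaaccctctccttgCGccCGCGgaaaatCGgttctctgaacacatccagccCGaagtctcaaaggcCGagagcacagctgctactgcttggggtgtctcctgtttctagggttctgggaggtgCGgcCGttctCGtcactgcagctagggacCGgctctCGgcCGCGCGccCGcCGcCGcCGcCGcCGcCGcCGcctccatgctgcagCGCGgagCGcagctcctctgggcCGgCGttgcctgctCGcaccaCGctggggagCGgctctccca

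Both promoters with the higher level were poor in CpG. The Tspan8 window held 5 CpG at an observed over expected ratio of 0.25 and 51.7% GC, and the Ptx3 window 8 CpG at 0.43 and 54.7% GC. Among the called genes with the lower level, Lrfn5 was rich in CpG, with 32 CpG at 0.94 and 67.7% GC. The others were poor in it as well: the Fbxl22 window held 6 CpG at 0.32, and the Gm20063 window 7 CpG at 0.34. CpG content thus did not divide the higher from the lower called genes. Over 16976 windows of 13648 tested genes the median was 18 CpG (quartiles 8 and 27), a ratio of 0.70 and 59.7% GC. Tspan8, Ptx3, Fbxl22 and Gm20063 thus lay at or under the lower quartile of CpG number, and Lrfn5 above the upper quartile. Among all genes whose window had a CpG ratio under 0.25, 5.63% were lower and 1.29% higher at an unadjusted p under 0.05, against 2.07% and 3.03% at a ratio of 0.75 or more. Such CpG-poor genes also had lower levels, with a median of 5.64 CPM against 67.8 CPM. Within 20 to 80 CPM the median log2 fold changes of these classes were -0.00 and 0.02.

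Tspan8 (chr10:115816817-115849893, plus strand) had 90.2 and 78.8 CPM in the Lgr5-Tspan8hi libraries and 25.1 and 21.3 CPM in the Lgr5-Tspan8- libraries. Both Tspan8hi libraries stood far above both Tspan8- libraries. Means were 84.5 ± 8.08 and 23.2 ± 2.66 CPM (SD, n = 2 each), a log2 fold change of 1.89 ± 0.25 (SE) with an edgeR adjusted p of 5.37e-07. Reads were also counted at the gene in cells sorted as Tspan8-, 43 and 101 against 198 and 200, from libraries of unequal totals. With no correction for input, they do not show that the mark was present there. The repressive mark H3K27me3 was opposite in order there, with 10.2 and 14.2 CPM in Lgr5-Tspan8hi against 29.1 and 21.5 CPM in Lgr5-Tspan8-. Those groups did not overlap either, but the log2 fold change of -1.001 ± 0.28 did not pass (edgeR adjusted p = 0.199).

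Other tetraspanins did not pass. Of 22 tetraspanin genes tested, 1 passed, 12 lay above 0 and 10 below, with a median log2 fold change of 0.03 (-0.00 to 0.09 with 1 Lgr5- library left out). Tspan18, a tetraspanin that regulates store-operated calcium entry in endothelial cells, had 46.9 and 51.2 CPM against 61.8 and 76.4 CPM (-0.51 ± 0.22, edgeR adjusted p = 0.815). Tspan3 had 92.5 and 76.8 CPM against 68.2 and 70.7 CPM (0.28 ± 0.20, edgeR adjusted p = 0.967).

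Ptx3 (chr3:66219887-66225806, plus strand, within the span of Veph1) had 110.3 and 107 CPM in Lgr5-Tspan8hi and 50.2 and 61.6 CPM in Lgr5-Tspan8- libraries. The 2 replicates of each group lay close together and the groups did not overlap. Means were 109 ± 2.20 and 55.9 ± 8.12 CPM (SD, n = 2 each), a log2 fold change of 0.94 ± 0.19 with an edgeR adjusted p of 0.0204. In Lgr5+ cells the level was high whatever the Tspan8 state, at 85.2 and 106 CPM in Tspan8hi and 88.95 and 101 CPM in Tspan8- libraries, a log2 fold change of 0.03. The Lgr5-Tspan8- libraries were thus the only low ones of the 8. Reads of Ptx3 and Veph1 cannot be told apart where they overlap.

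Lrfn5 (chr12:61522851-61857928, plus strand) encodes a postsynaptic adhesion protein that contacts presynaptic receptor tyrosine phosphatases. It had 18.7 and 19.3 CPM in Lgr5-Tspan8hi and 44.9 and 70.5 CPM in Lgr5-Tspan8- libraries. The Tspan8hi libraries were nearly equal and lower than both Tspan8- libraries, which differed from each other. Means were 19.00 ± 0.440 and 57.7 ± 18.1 CPM (SD, n = 2 each), a log2 fold change of -1.62 ± 0.33 with an edgeR adjusted p of 0.0204. Gm20063 (chr12:61499660-61521820, minus strand) had 18.7 and 18.1 CPM against 44.3 and 70.3 CPM, or -1.66 ± 0.34 on the log2 scale (edgeR adjusted p = 0.0204). The 2 genes start within 2 kb of each other on opposite strands and had nearly equal values, so they cannot be told apart. Of 24 synaptic adhesion genes tested, 11 lay above 0 and 13 below, with a median of -0.02 (-0.19 to 0.01 with 1 Lgr5- library left out), and Lrfn5 was the 1 that passed. Nlgn1, which encodes neuroligin 1, had 47.4 and 78.8 CPM against 83.4 and 101 CPM (-0.55 ± 0.22, edgeR adjusted p = 0.75).

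Fbxl22 (chr9:66508459-66514593, minus strand, overlapping Herc1) had 25.5 and 25.2 CPM in Lgr5-Tspan8hi and 65.3 and 58.9 CPM in Lgr5-Tspan8- libraries. Replicates agreed closely and the groups did not overlap. Means were 25.4 ± 0.214 and 62.1 ± 4.54 CPM (SD, n = 2 each), 2.43-fold lower in Tspan8hi (log2 fold change -1.28 ± 0.28, edgeR adjusted p = 0.0382). Asb2, whose protein is the specificity subunit of a ubiquitin ligase that degrades filamins, had 19.6 and 14.6 CPM against 41.99 and 50.7 CPM. Its groups were apart by a log2 fold change of -1.45 ± 0.34, but it did not pass (edgeR adjusted p = 0.088). Filip1l, related to the filamin-interacting protein Filip1, had 37.8 and 47.3 CPM against 76.4 and 70.7 CPM (-0.78 ± 0.23, edgeR adjusted p = 0.539) and did not pass either. The 14 tested genes of filamins and their partners held 1 call. Of them 8 lay above 0 and 6 below, with a median of 0.15. The sign of that median rested on single libraries: it was -0.09 without Lgr5-Tspan8hi replicate 1, -0.04 without Lgr5-Tspan8- replicate 1 and -0.06 without Lgr5-Tspan8- replicate 2.

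The windows of Fbxl22, Asb2 and Filip1l are shown because a window of each holds a CArG box, the motif bound by serum response factor in smooth muscle and cytoskeletal genes, which is in capitals. They are chr9:66514544-66514843 (minus strand), chr12:103355952-103356251 (minus strand) and chr16:57548992-57549291 (plus strand), from RefSeq on GRCm38.p6 and written 5′ to 3′ on the gene's strand.
Fbxl22: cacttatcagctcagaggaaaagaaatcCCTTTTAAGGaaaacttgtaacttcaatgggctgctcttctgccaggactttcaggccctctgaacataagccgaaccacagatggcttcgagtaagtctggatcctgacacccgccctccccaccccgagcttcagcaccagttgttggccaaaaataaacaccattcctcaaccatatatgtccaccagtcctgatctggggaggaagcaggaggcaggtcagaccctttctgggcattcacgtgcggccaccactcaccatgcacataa
Asb2: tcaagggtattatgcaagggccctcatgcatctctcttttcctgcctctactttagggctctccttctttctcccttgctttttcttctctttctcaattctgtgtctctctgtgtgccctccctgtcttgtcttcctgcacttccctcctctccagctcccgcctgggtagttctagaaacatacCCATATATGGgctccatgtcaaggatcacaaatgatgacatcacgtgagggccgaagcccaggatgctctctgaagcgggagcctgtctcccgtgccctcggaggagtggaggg
Filip1l: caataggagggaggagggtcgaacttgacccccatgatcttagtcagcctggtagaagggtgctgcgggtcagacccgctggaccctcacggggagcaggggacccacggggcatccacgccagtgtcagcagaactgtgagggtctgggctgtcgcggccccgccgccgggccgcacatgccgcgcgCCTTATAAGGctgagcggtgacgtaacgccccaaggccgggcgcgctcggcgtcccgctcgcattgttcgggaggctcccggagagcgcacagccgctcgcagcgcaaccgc

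The motif was searched as a sequence pattern on both strands. Its first base lay at -222 from the start at Fbxl22, -64 at Asb2 and -62 at Filip1l. Other promoter motifs were searched in the same windows and are not shown, so the CArG box was not the only motif tried. The shares given here take no account of that choice and were not tested. The CArG box was found in 1.34% of all 16976 windows. In the filamin list 4 of the 11 genes with a window had it (these 3 and Filip1), and in the contractile list 3 of 16 (Myl9, Srf and Vcl). RefSeq gives Asb2 and Filip1l a second window each, chr12:103338341-103338640 and chr16:57353027-57353326, and neither of those holds the box. The 214 tested genes with one (1.57% of genes) had a median log2 fold change of 0.00, and 4.67% of them were lower at an unadjusted p under 0.05, against 2.95% of all genes with a window. A match is a description of these letters and not of a bound site.

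**Figure D3:**
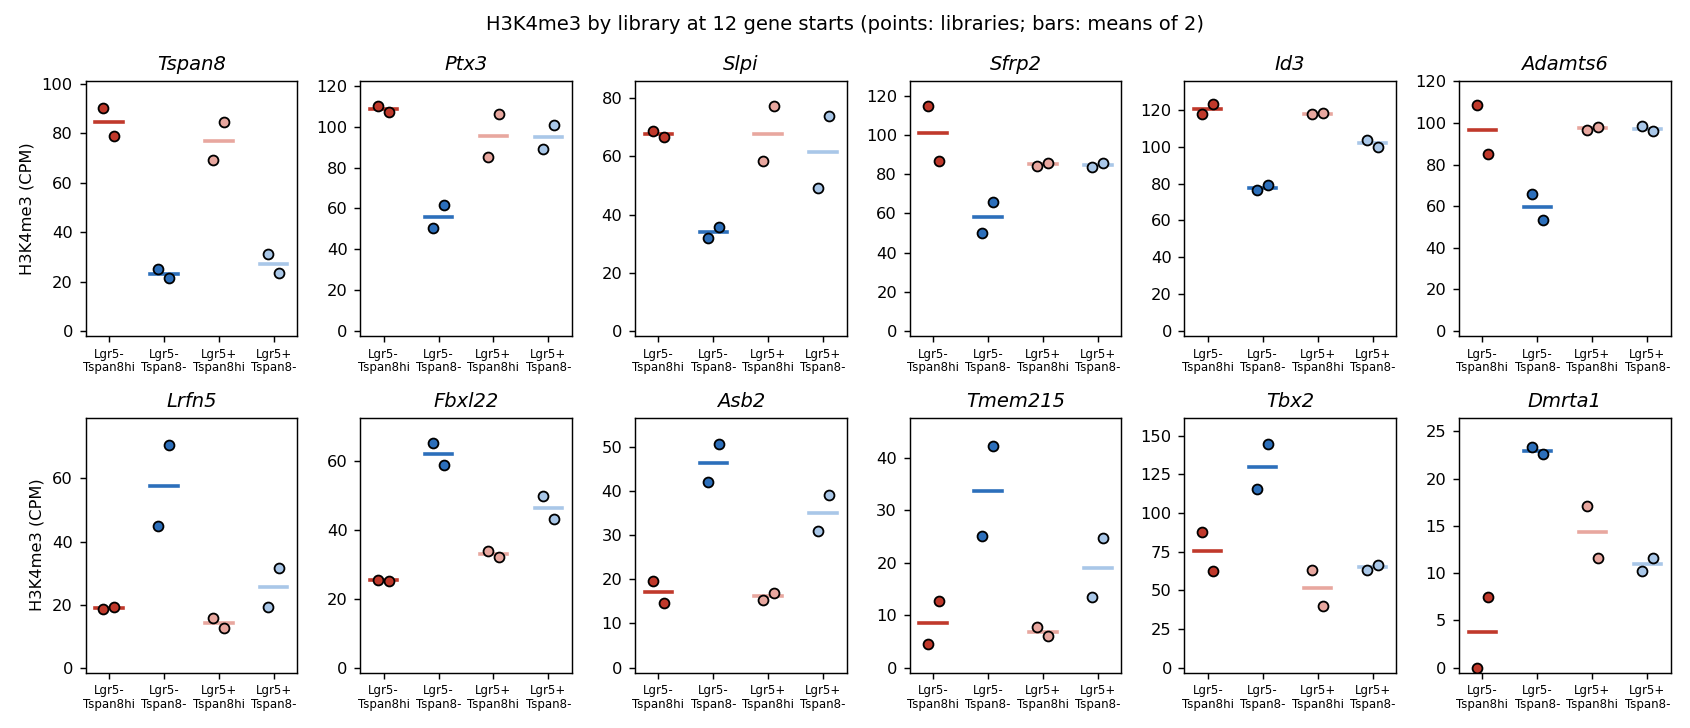
H3K4me3 (CPM, vertical axes from 0) of 12 genes in each of the 8 libraries, with 1 point per library and a bar at the mean of each subpopulation. Tspan8 is high in both Tspan8hi subpopulations, whereas Ptx3 is low in Lgr5-Tspan8- libraries alone, at 50.2 and 61.6 CPM.

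A second tier of lower promoters lay apart in all 4 libraries without passing. Most were picked because their groups did not overlap, which held at 17.4% of all genes in this direction. Tbx2 encodes a T-box repressor that acts in mammary development and bypass of senescence. It had 87.97 and 62.7 CPM against 115 and 144 CPM, or -0.80 ± 0.20 on the log2 scale (edgeR adjusted p = 0.19), and 2610027K06Rik, which starts within 2 kb of it, had 81.1 and 61.5 against 122 and 144 CPM (-0.91 ± 0.20, edgeR adjusted p = 0.0518). Tmem215, a transmembrane protein gene, had 4.56 and 12.6 CPM against 25.1 and 42.2 CPM (-1.97 ± 0.45, edgeR adjusted p = 0.0817). Tmem215 was lowest in Lgr5-Tspan8hi replicate 1, and the Tbx2 pair in replicate 2. Dmrta1, a doublesex-related transcription factor gene, had 0 and 7.49 CPM against 23.3 and 22.6 CPM (-2.54 ± 0.59, edgeR adjusted p = 0.0817), and its 0 came from the library of lowest effective depth. Ptger3, a prostaglandin E2 receptor gene, had 4.10 and 16.9 CPM against 34.4 and 34.6 CPM (-1.68 ± 0.45, edgeR adjusted p = 0.357). Piwil2, which encodes a Piwi protein of the germline, had 1.82 and 3.55 CPM against 20.99 and 12.7 CPM (-2.58 ± 0.70, edgeR adjusted p = 0.357). Without Lgr5-Tspan8hi replicate 1 the log2 fold changes were -1.61 at Dmrta1, -1.03 at Ptger3 and -1.45 at Tmem215. Of 17 other settings 2610027K06Rik passed in 12, Tmem215 and Dmrta1 in 7 each and Asb2 in 6. Ntn1, the guidance cue netrin 1 that also holds mammary cell layers together, had 57.9 and 77.2 CPM against 96.2 and 122 CPM (-0.70 ± 0.19, edgeR adjusted p = 0.321). Zfp69, a zinc finger gene, stood at -0.97 ± 0.26 on the log2 scale (edgeR adjusted p = 0.321).

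Higher promoters lay apart without passing as well. Slpi, a secreted inhibitor of neutrophil proteases, had 68.8 and 66.6 CPM against 32.1 and 35.7 CPM, and its replicates were close together and the groups well apart. Its log2 fold change of 0.98 ± 0.24 did not pass (edgeR adjusted p = 0.162). Sfrp2, a secreted Wnt modulator, had 115 and 86.7 CPM against 50.2 and 65.6 CPM (0.77 ± 0.20, edgeR adjusted p = 0.275). Id3, an inhibitor of helix-loop-helix factors and a target of BMP signalling, had 118 and 123 CPM against 76.4 and 79.4 CPM (0.63 ± 0.18, edgeR adjusted p = 0.487). The genes of this paragraph were picked from those whose groups did not overlap, so that trait is the rule of choice and not a result. It held at 16.3% of all genes in this direction. Adamts6, a secreted metalloprotease, had 108 and 85.1 CPM against 65.9 and 53.4 CPM (0.72 ± 0.20, edgeR adjusted p = 0.371). Grik3, a kainate receptor subunit, had 151 and 164 CPM against 91.6 and 117 CPM (0.58 ± 0.17, edgeR adjusted p = 0.487). Klf6, a zinc finger factor, had 225 and 141 CPM against 128 and 119 CPM (0.57 ± 0.17, edgeR adjusted p = 0.487), where replicate 1 alone was far up. Cttnbp2nl, a partner of the cortactin network, had 132 and 109 CPM against 79.3 and 74.3 CPM (0.66 ± 0.18, edgeR adjusted p = 0.449).

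Lgr5 itself, whose absence defined both sorted groups, did not pass. It had 74.3 and 80.8 CPM in Lgr5-Tspan8hi and 51.9 and 72.8 CPM in Lgr5-Tspan8- libraries, or 0.28 ± 0.21 on the log2 scale (edgeR adjusted p = 0.967). Reads were thus counted at the gene in cells sorted as Lgr5-, with no correction for input, and it overlaps A930009A15Rik.

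Single libraries set which genes passed. Tspan8 passed in every one of 17 other settings, with a log2 fold change from 1.75 to 1.98. Without Lgr5-Tspan8hi replicate 1, 2 genes passed, Tspan8 and 2610027K06Rik, and the edgeR adjusted p was 0.143 at Ptx3, 0.143 at Lrfn5 and 0.198 at Fbxl22, with the lone remaining library assumed to vary like the other groups. Without Lgr5-Tspan8- replicate 1, 3 genes passed (Tspan8, Gm20063 and Lrfn5), and without Lgr5-Tspan8- replicate 2 only Tspan8 did. Without Lgr5-Tspan8hi replicate 2, which leaves the library of lowest effective depth to stand for Lgr5-Tspan8hi, 147 genes passed, 41 higher and 106 lower. With only the 4 Lgr5- libraries in the fit 3 genes passed (Tspan8, Gm20063 and Lrfn5), and leaving out 1 of the Lgr5+ libraries gave 8 to 10. Directions did not turn at the called genes: over the 17 settings the log2 fold change ran from 0.81 to 1.11 at Ptx3, from -1.89 to -1.24 at Lrfn5 and from -1.37 to -1.22 at Fbxl22.

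Basal and contractile genes showed no call. Of 19 basal and myoepithelial markers tested 12 lay above 0 and 7 below, with a median log2 fold change of 0.13, and of 20 contractile and SRF target genes 9 lay above and 11 below, with a median of -0.05 that was 0.03 without Lgr5-Tspan8- replicate 2. Krt14 had 0.33 ± 0.17 on the log2 scale (edgeR adjusted p = 0.915). Actg2, smooth muscle gamma actin, had 25.98 and 16.6 CPM against 42.6 and 49.2 CPM (-1.13 ± 0.32, edgeR adjusted p = 0.487), and Tagln, the actin-binding transgelin, 88.4 and 80.4 against 101 and 118 CPM (-0.39 ± 0.18, edgeR adjusted p = 0.87). Both were lower in all Tspan8hi libraries. Without Lgr5-Tspan8hi replicate 1 the basal median was 0.01. Among 19 genes of cyclic nucleotide signalling 5 lay above 0 and 14 below (median -0.15), none passing. That median was -0.03 with 10 of 19 below without Lgr5-Tspan8hi replicate 1, and -0.04 with 10 of 18 below without Lgr5-Tspan8- replicate 2. Pde3a, a phosphodiesterase that breaks down cAMP in smooth muscle, had 44.7 and 43.4 CPM against 73.5 and 84.9 CPM (-0.86 ± 0.25, edgeR adjusted p = 0.487), and Mrvi1, a substrate of cGMP-dependent kinase in smooth muscle, 39.7 and 31.1 against 56.6 and 63.1 CPM (-0.77 ± 0.25, edgeR adjusted p = 0.63).

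Luminal markers gave no call in any of 3 lists. The 14 pan-luminal genes had 11 above 0 and a median of 0.20, which was 0.07 without Lgr5-Tspan8hi replicate 1. Epcam, the epithelial adhesion molecule, had 133 and 67.8 CPM against 75.8 and 69.9 CPM, and only replicate 1 was above the others (0.46 ± 0.20, edgeR adjusted p = 0.809). Muc1, the apical mucin, had 53.3 and 54.8 CPM against 41.4 and 35.7 CPM (0.50 ± 0.26, edgeR adjusted p = 0.915). The 12 hormone-sensing luminal genes split 6 and 6 around 0 (median -0.05, and 0.13 without Lgr5-Tspan8hi replicate 2) and the 9 luminal progenitor genes 4 above and 5 below (median -0.15, and 0.00 without Lgr5-Tspan8hi replicate 1). Tbx3, a T-box factor of mammary lineage and hormone-sensing cells, had 177 and 178 CPM against 125 and 136 CPM (0.44 ± 0.16, edgeR adjusted p = 0.699), apart from its relative Tbx2 in direction. Kit, a receptor of luminal progenitors, had 30.5 and 27.98 CPM against 37.9 and 54.9 CPM (-0.69 ± 0.31, edgeR adjusted p = 0.817).

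Of the markers of cells outside the epithelium none passed, and the medians of 5 of 7 lists lay below 0. In sorted bulk samples, fewer cells of a type and less of the mark per cell cannot be told apart. Fibroblast markers summed to 307 and 427 CPM in Lgr5-Tspan8hi and 441 and 477 CPM in Lgr5-Tspan8-, 8 of the 13 tested markers lying below 0 (median -0.26, and -0.70 without Lgr5-Tspan8hi replicate 2). Dcn, the matrix proteoglycan decorin, had 22.8 and 41.8 CPM against 65.3 and 58.9 CPM (-0.93 ± 0.31, edgeR adjusted p = 0.63), and Prrx1, a mesenchymal homeobox factor, 46.04 and 65.8 against 72.9 and 90.3 CPM (-0.55 ± 0.22, edgeR adjusted p = 0.758). Pericyte markers summed to 235 and 255 against 282 and 300.2 CPM (9 of 10 below 0, median -0.39, and -0.16 without Lgr5-Tspan8hi replicate 1). Endothelial markers summed to 320.0 and 286 against 326 and 312 CPM, sums that overlapped, with 8 of 12 below 0 (median -0.37, -0.12 with loess offsets, and -0.67 to -0.19 with 1 Lgr5- library left out). Immune markers summed to 90.2 and 98.5 against 125 and 125 CPM over the 4 of 14 listed that had enough reads to test (3 below 0, median -0.76). With 7 immune markers tested, leaving out Lgr5-Tspan8hi replicate 2 gave a median of 0.04, and leaving out Lgr5-Tspan8- replicate 2 gave 0.12. The pan-leukocyte gene Ptprc was near 0, at 1.37 and 1.18 CPM against 1.17 and 4.22 CPM. Many of these markers sit at low levels, where the median of all genes was also below 0, and the part of such cells in any difference was not tested. Adipocyte markers had 5 of 6 below 0 (median -0.32), but 2 of 6 without Lgr5-Tspan8hi replicate 1 (median 0.03). Schwann and neural markers had 4 of 11 below 0 (median 0.03, and -0.02 with loess offsets) and epidermal keratinocyte markers 4 of 8 (median 0.00). With 1 Lgr5- library left out those medians ran from -0.08 to 0.15 and from -0.34 to -0.06.

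Signalling lists were balanced. Wnt pathway genes split 19 above and 15 below 0 (34 tested, median 0.02), Notch genes 9 and 11 (20 tested, median -0.01), TGF-beta and BMP genes 11 and 12 (23 tested, median -0.01), and hormone and growth factor receptors 15 and 11 (26 tested, median 0.02). None held a call. With 1 Lgr5- library left out the medians ran from -0.04 to 0.11 for Wnt, -0.12 to 0.08 for Notch and -0.07 to 0.06 for TGF-beta and BMP genes, around 0 in each case, and from 0.02 to 0.08 for the receptors. Dkk3, a secreted Dickkopf-family protein, had 96.6 and 88.7 CPM against 57.7 and 67.97 CPM (0.54 ± 0.20, edgeR adjusted p = 0.703), and Rspo2, a ligand of Lgr receptors, 5.01 and 11.4 against 14.6 and 23.9 CPM (-1.23 ± 0.56, edgeR adjusted p = 0.846). Collagen and laminin genes split 17 and 13 (30 tested, median 0.02). The basement membrane genes in them went both ways: Col18a1 had 108 and 87.1 CPM against 53.7 and 65.4 CPM (0.69 ± 0.20, edgeR adjusted p = 0.487), while Col4a1 had 162 and 133 against 195 and 192 CPM (-0.39 ± 0.16, edgeR adjusted p = 0.758). Col4a2, which shares a bidirectional promoter with Col4a1, gave -0.36. Heparan sulfate modification genes had 14 of 20 below 0 (median -0.25, and -0.07 without Lgr5-Tspan8- replicate 2), with Hs3st4, a 3-O-sulfotransferase, at 7.29 and 11.03 CPM against 16.3 and 34.4 CPM (-1.50 ± 0.48, edgeR adjusted p = 0.563).

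The title names quiescence, and the cell cycle lists held no call. Proliferation genes had 17 of 20 below 0 with a median log2 fold change of -0.21, which was -0.05 without Lgr5-Tspan8- replicate 2. Mitotic Ccnb1 (cyclin B1) had 22.3 and 38.6 CPM against 44.3 and 48.6 CPM (-0.60 ± 0.29, edgeR adjusted p = 0.888), and its partner kinase Cdk1 28.3 and 43.7 against 60.1 and 47.7 CPM (-0.56 ± 0.28, edgeR adjusted p = 0.915). Both were lowest in replicate 1 of Lgr5-Tspan8hi. The replication clamp Pcna went the other way, at 119.9 and 102 CPM against 82.2 and 75.99 CPM (0.50 ± 0.19, edgeR adjusted p = 0.721). Quiescence and cyclin-dependent kinase inhibitor genes split 8 above and 12 below 0 (median -0.04, and -0.05 to 0.03 with 1 Lgr5- library left out). Cdkn1b, the inhibitor p27, had 173 and 177 CPM against 157 and 137 CPM (0.26 ± 0.16, edgeR adjusted p = 0.953). As a list read for comparison, 79 ribosomal protein genes had a median of 0.05 (-0.00 to 0.10 with 1 Lgr5- library left out). The median of 90 olfactory receptor genes, 0.15, was not stable: it was 0.63 with loess offsets and -3.03 over the 289 tested without Lgr5-Tspan8hi replicate 2.

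Hox genes, which set positional identity, leaned to lower values. Of 39 Hox genes tested, 27 lay below 0 and 12 above, 19 had both Lgr5-Tspan8hi libraries below both Lgr5-Tspan8- libraries and 1 had both above, against 17.4% and 16.3% of all genes, and none passed. Their median level over the 4 Lgr5- libraries was 14.05 CPM, and all genes of 10 to 20 CPM had a median log2 fold change of -0.19. The median log2 fold change of the Hox genes was -0.32, which loess offsets moved to -0.22, and in Lgr5+ cells the median was 0.05. Hoxa2 had 0.456 and 4.73 CPM against 15.7 and 10.3 CPM (-2.24 ± 0.74, edgeR adjusted p = 0.63), and Hoxa13 had 14.1 and 9.85 against 27.4 and 23.2 CPM (-1.07 ± 0.42, edgeR adjusted p = 0.75). Leaving out Lgr5-Tspan8hi replicate 1 gave a Hox median of -0.38 and leaving out replicate 2 gave -0.62. Effective depth moved with the groups here too, and its part was not tested. Summed over the 39 genes the mark reached 643 and 683 CPM in Lgr5-Tspan8hi and 759 and 771 CPM in Lgr5-Tspan8-. T-box genes had 11 of 14 below 0 (median -0.35, -0.13 with loess offsets and -0.14 without Lgr5-Tspan8hi replicate 2), and other developmental transcription factors 22 of 30 (median -0.17, -0.06 with loess offsets and -0.29 to -0.10 with 1 Lgr5- library left out). Gata4, a factor of heart and endoderm, had 10.03 and 9.06 CPM against 18.7 and 19.4 CPM (-0.997 ± 0.48, edgeR adjusted p = 0.885).

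H3K27me3 of the Hox genes leaned the same way. In Lgr5- cells it lay below 0 at 38 of 39 Hox genes (median log2 fold change -0.43) and at all 30 of the developmental transcription factors tested (median -0.46), while 10873 of all 22099 genes lay below 0 (median 0.01). Both marks lay below 0 at 26 Hox genes and at 22 of those transcription factors. With H3K27me3 below 0 at nearly all of them, these overlaps were close to fixed in advance. They do not show that the marks go together gene by gene. Summed over the Hox genes, H3K27me3 was 1719 and 2048 CPM in Lgr5-Tspan8hi and 2101 and 2960 CPM in Lgr5-Tspan8-. Those groups did not overlap, but Lgr5-Tspan8hi replicate 2 lay close to Lgr5-Tspan8- replicate 1, and Lgr5-Tspan8- replicate 2 stood far above the rest. The developmental transcription factors summed to 3212 and 3443 against 3757 and 5210 CPM, again highest in Lgr5-Tspan8- replicate 2. The size of the lean in these sums thus rests much on that library, and list medians without it were not computed for this mark. The direction also held against Lgr5-Tspan8- replicate 1. Lgr5-Tspan8hi replicates 1 and 2 lay below both Lgr5-Tspan8- libraries at 28 and 24 of the 39 Hox genes. They did so at 26 and 21 of the 30 transcription factors. The share of all genes with such values was not counted. As with H3K4me3, Lgr5-Tspan8hi replicate 1 had the lower effective depth for H3K27me3, at 31.0%, and its part in the lower sums was not tested.

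The same contrast in Lgr5+ cells called 1 of 19009 genes (0.00526%), which was Tspan8. It had 69.4 and 84.4 CPM in Lgr5+Tspan8hi and 30.99 and 23.3 CPM in Lgr5+Tspan8- libraries, which gave 1.48 ± 0.25 on the log2 scale (edgeR adjusted p = 0.0013). That call was lost without Lgr5+Tspan8hi replicate 2 or Lgr5+Tspan8- replicate 2, and 10 genes passed without Lgr5+Tspan8- replicate 1. The 4 libraries of each Lgr5 state are separate, so the states can be set side by side. Log2 fold changes were -1.62 in Lgr5- and -0.81 in Lgr5+ at Lrfn5, -1.28 and -0.51 at Fbxl22, and -1.45 and -1.10 at Asb2. At Pde3a they were -0.86 and -1.30, and at Dcn -0.93 and -1.02. All 5 had negative values in both states. They are among the genes chosen because earlier results of these data had named them, so their shared sign is no independent support. Ptx3 (0.94 and 0.03), Sfrp2 (0.77 and 0.01) and Col18a1 (0.69 and -0.06) were near 0 in Lgr5+ cells. The test of the difference between states called 0 genes (0%) by edgeR, DESeq2 and limma-voom, with 799, 761 and 910 genes at an unadjusted p under 0.05. Without Lgr5-Tspan8hi replicate 2 the test called 15 genes, and without Lgr5+Tspan8- replicate 1 it called 4. At Ptx3 that difference was 0.91 ± 0.27 (edgeR adjusted p = 1.0), and no gene can be called particular to Lgr5- cells. Ptprt, a receptor phosphatase gene, had -0.09 in Lgr5- cells (edgeR adjusted p = 0.993).

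Across all 19009 genes the log2 fold changes of both states had a Pearson r of 0.04, or 0.09 over the 13888 genes of at least 20 CPM, given as a description because genes are not independent replicates. The sign was shared at 52.5% of all genes, at 59.3% of the 1034 genes with an unadjusted p under 0.05 in Lgr5- cells, and at 67 of the 100 genes of smallest p.

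**Figure D4:**
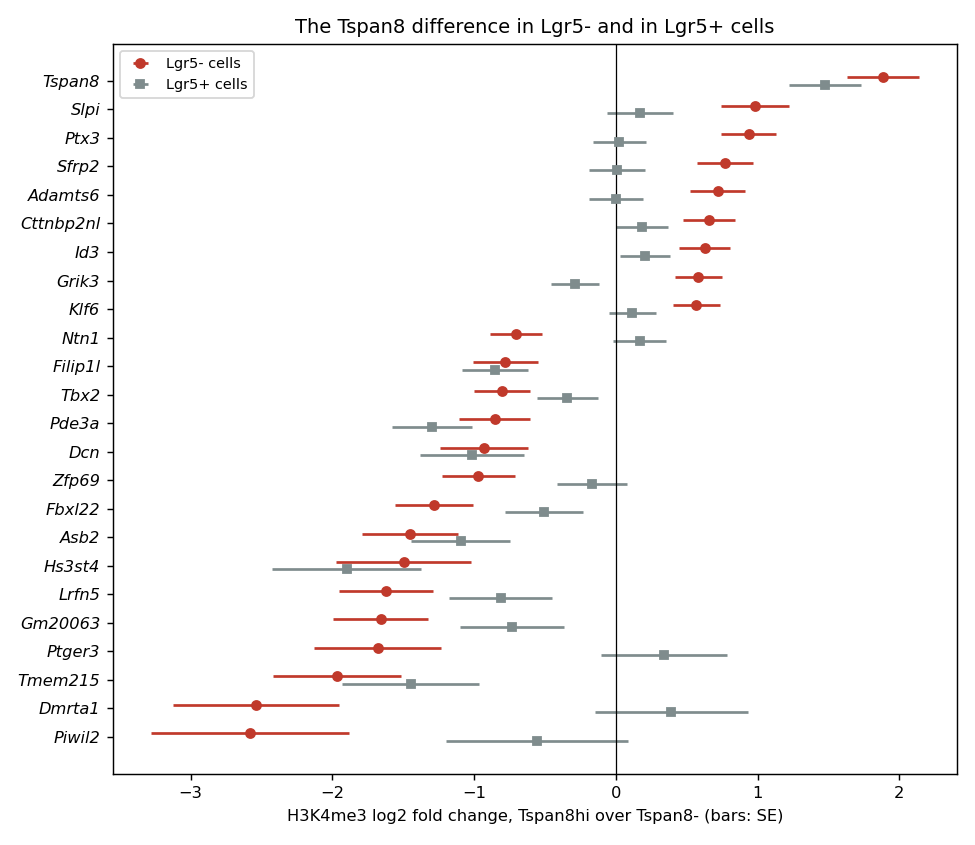
Log2 fold change of H3K4me3, Tspan8hi over Tspan8-, with its standard error, for 24 named genes in Lgr5- cells and in Lgr5+ cells. Tspan8 lies well above 0 in both states at 1.89 and 1.48, while Ptx3 lies at 0.94 in Lgr5- and 0.03 in Lgr5+ cells.

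H3K27me3 from the same sorted subpopulations gave a readout that the H3K4me3 comparison did not use. It called 16 of 22099 genes in Lgr5- cells (0.0724%), 4 higher and 12 lower in Lgr5-Tspan8hi, and no gene was called for both marks. The split was 6 higher and 6 lower with library totals, 8 and 10 with loess offsets, and DESeq2 and limma-voom called 146 and 81 genes. The marks are compared by gene, and the region counted may differ between them. Tbx2 was the clearest case of opposite marks. Its H3K27me3 was 80.6 and 97.8 CPM in Lgr5-Tspan8hi and 33.5 and 28.8 CPM in Lgr5-Tspan8-, or 1.53 ± 0.18 on the log2 scale (edgeR adjusted p = 6.14e-05), beside -0.80 for H3K4me3. Pde3a had 256 and 264 CPM against 135 and 122 CPM (1.02 ± 0.13, edgeR adjusted p = 0.000192), beside -0.86 for H3K4me3. Grik3 ran in reverse, with H3K27me3 at 119 and 99.97 CPM against 214 and 239 CPM (-1.06 ± 0.17, edgeR adjusted p = 0.0053) and H3K4me3 at 0.58. Adamts6 did the same, with 122 and 148 against 284 and 247 CPM of H3K27me3 (-0.97 ± 0.16, edgeR adjusted p = 0.00976) and 0.72 for H3K4me3.

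At 13 of the 16 genes the marks had opposite signs, against 49.2% of the 16354 genes in both tables. Of those 13, 12 had H3K4me3 groups that did not overlap in the opposite direction and 7 had an unadjusted H3K4me3 p under 0.05. Over all genes 16.3% were apart as higher and 17.4% as lower, and 2.34% and 3.1% had such a p. The 12 count Tbx2 and 2610027K06Rik, which share a start, as 2. Skap2, Cecr2 and Cxcl9 had the same sign in both marks. Among the 12 the H3K4me3 difference was small at Enah and Ocln. Enah, an actin filament elongation factor, had 110.4 and 93.3 CPM of H3K27me3 against 268 and 322 CPM (-1.54 ± 0.16, edgeR adjusted p = 6.91e-06), and its H3K4me3 was 106 and 113 against 105 and 98.8 CPM (0.11). Ocln, the tight junction protein occludin, had 56.5 and 61.96 CPM of H3K27me3 against 125 and 134 CPM (-1.12 ± 0.16, edgeR adjusted p = 0.00204) and an H3K4me3 difference of 0.15. Of the promoters called in H3K4me3, Lrfn5 had an H3K27me3 log2 fold change of 0.35 that did not pass, and Fbxl22 was not among the genes tested for H3K27me3. Enah, Tbx2, Pde3a, Ocln and Grik3 stayed called in all 17 other settings. Those 5 were the calls left without Lgr5-Tspan8hi replicate 1, while 538 genes passed without Lgr5-Tspan8hi replicate 2, 714 without Lgr5-Tspan8- replicate 1 and 8 without Lgr5-Tspan8- replicate 2.

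**Figure D5:**
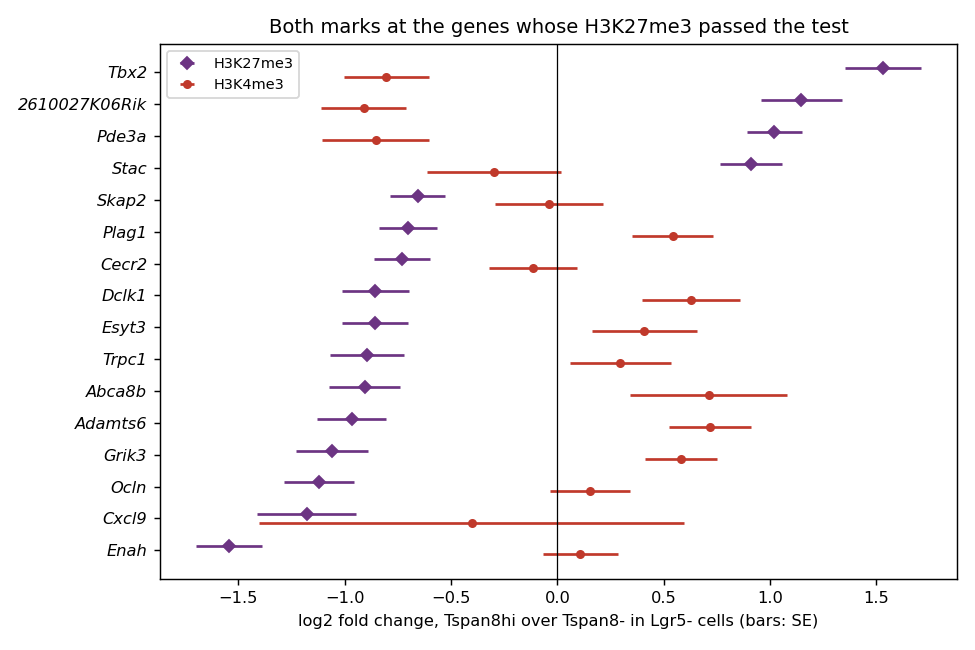
Log2 fold change in Lgr5- cells, Tspan8hi over Tspan8-, of H3K4me3 and of H3K27me3 with standard errors, for the 16 genes called in H3K27me3. Tbx2 shows 1.53 for H3K27me3 and -0.80 for H3K4me3, and Enah shows -1.54 and 0.11.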

How the data were processed

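Per the labels' protocols, sheared chromatin of sorted basal cells was precipitated with antibodies to H3K4me3 or H3K27me3. The authors deposited 1 raw count per Entrez gene and library, which per the submitters' processing notes came from featureCounts on mm10. Aligner, annotation and counted region: not given in the sources used here. Genes with starts within 1 kb had near-equal H3K4me3 counts (median ratio 1.01 over 1671 pairs, 82.5% within 10%), so shared starts and overlapping genes cannot be told apart. H3K27me3 counts of such genes were unlike (median ratio 4.19 over 1152 pairs, 2.34% within 10%). The counted region may therefore differ between the marks, and values of both at a gene need not describe the same stretch. Levels per gene are not scaled to length, and genes were sorted by level only into classes. The 8 input samples were not used here and no value is corrected for input. No column belonged to another series (0 columns).

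Symbols came from RefSeq on GRCm38.p6 for 25189 of 27080 genes. Each mark was fitted on its 8 libraries in R 4.3.3 with edgeR 4.0.16: filterByExpr, TMM factors, a mean per subpopulation and the robust quasi-likelihood test on 4 residual degrees of freedom, with Benjamini-Hochberg adjustment over all genes tested (19009 and 22099). The common biological coefficient of variation was 16.0% for H3K4me3. Standard errors were obtained from the F statistic. The fit was tested on simulated data. Total counts of the 8 H3K4me3 libraries ran from 1472251 to 4740371, so that at low counts the counting error adds to the spread between libraries.

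Named genes were Tspan8 and Lgr5, the called genes, fillers to 10 in each direction by smallest p among genes whose groups did not overlap, up to 3 members of each list by smallest p, and 10 genes known from earlier results. A gene that this rule took is not reported here. Predicted genes were named only where they share a start with a named gene. Krt5 was added as a marker of the labelled cell type. Genes called for H3K27me3 were named after their values were seen. The genes, lists and tests were chosen with earlier results of these data known. Alternatives were DESeq2 1.42.0, limma-voom (limma 3.58.1), RLE factors, library totals, loess offsets, no filter, only genes averaging at least 5 CPM, a block for replicate number, the 4 Lgr5- libraries alone and each library left out.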

Additional observations from a re-analysis of the deposited data

Results flagged for a closer look

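Of the named genes, 3 had log2 fold changes of opposite sign in Lgr5- and Lgr5+ cells, with both libraries of each group on opposite sides in each state. Over all 19009 genes 47.5% had opposite signs, which is a looser rule. The share of all genes with groups apart on opposite sides in both states was not counted, so the flagged genes have no like background. Grik3 and Ntn1 were also named because their groups did not overlap in Lgr5- cells. Lgr5 H3K4me3 was higher with Tspan8 in Lgr5- cells (0.28) and lower in Lgr5+ cells (-0.31), a difference of 0.60 ± 0.29 (SE). Grik3 was higher in Lgr5- cells (0.58) and lower in Lgr5+ cells (-0.29, from 107 and 138 against 139 and 164 CPM), a difference of 0.87 ± 0.24. Ntn1 was lower in Lgr5- cells (-0.70) and higher in Lgr5+ cells (0.17, from 114 and 111 against 95.2 and 106 CPM), a difference of -0.87 ± 0.26. None of these differences between states passed when tested over all genes (edgeR adjusted p = 1.0 at each). Grik3 groups in Lgr5+ cells touch closely, at 138 and 139 CPM.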

How the results depend on the processing

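The count of 5 genes in Lgr5- cells was 6 with RLE factors, library totals, loess offsets, a mean of at least 5 CPM and DESeq2, 8 with limma-voom, 8 with no filter, and 3 with the 4 Lgr5- libraries alone. With the replicate number as a replicate block it was 10 (2 higher, 8 lower). Whether the numbers pair the libraries was not settled. Deviations of same-numbered libraries correlated weakly and always positively, at 0.02 to 0.20 for H3K4me3 and 0.01 to 0.22 for H3K27me3. Leaving out 1 library gave 1 to 147 genes. The Lgr5+ count of 1 became 0 to 10, and the interaction count of 0 became 0 to 15, with 1 library left out. The H3K27me3 count of 16 (4 higher, 12 lower) was 12 (6 and 6) with library totals, 18 (8 and 10) with loess offsets, 146 with DESeq2, 81 with limma-voom, 84 with no filter, 238 with the replicate block, 5 with the 4 Lgr5- libraries alone and 5 to 714 with 1 library left out. The cause of these shifts was not tested. The effective depth difference of -47.6 points was -36.7 over genes of at least 1 CPM.

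Of the single-gene values, signs turned with 1 library left out at Ptx3 in Lgr5+ cells (-0.15 to 0.19), and in Lgr5- cells at Skap2 (-0.31 to 0.19 over those fits), Ptprt (-0.33 to 0.19) and Cecr2 (-0.33 to 0.21). Of 29 list medians 16 turned with 1 Lgr5- library left out and 7 with another scaling, among them Wnt and receptor genes (each from 0.02 to -0.01 with library totals) and collagen and laminin genes, and 11 turned in neither. The other single-gene values and the list medians under another scaling were counted together, and 1080 of them were kept. For a gene, kept means the same direction and side of the threshold. For a median, it means a shift smaller than the spread between replicates. Single-gene values crossed to pass in 46 cases and ceased to pass in 71, and 9 list medians moved by more than that spread. With 2 libraries a group and effective depths from 17.2% to 90.4%, genes of low count are the least certain.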
